A study of Mus musculus with 4 samples.

Results

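The agrin, MuSK and rapsyn pathway was examined as all probe sets annotated to 10 genes: Agrn, Lrp4, Musk, Dok7, Rapsn, Crk, Crkl, Dnaja3, Abl1 and Abl2. These are 25 of the 45101 probe sets of the array, and the 10 genes are among 18193 that had at least 1 probe set of their own. The left hemi-diaphragm of the mouse, a sheet of breathing muscle innervated in a narrow band, was cut into a synaptic region and a non-synaptic region, and total RNA of each was measured on 2 one-colour oligonucleotide arrays. The sources used here give no strain, age, sex, genotype or treatment. They do not say either that a region's arrays were made from different animals. The p-values therefore reflect the spread between arrays alone, and this spread may be technical. The titles of each region's arrays end in e1_le1 and e1_le2, which the sources used here do not explain. The last digit is read here as the array number, and each array is named by its region and that number.

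Agrin is a proteoglycan that motor nerve terminals and muscle release into the synaptic cleft. It binds Lrp4, a receptor on the muscle fibre, which activates the receptor tyrosine kinase MuSK. MuSK recruits the adaptor Dok7, which is itself phosphorylated and binds the adaptors Crk and Crk-like (Crkl), and the cascade ends in the clustering of acetylcholine receptors through the scaffold rapsyn. The kinases Abl1 and Abl2 and the co-chaperone Dnaja3 (also known as Tid1) take part in the same signalling. The proteins are concentrated at the neuromuscular synapse, and the question here was whether their transcripts were higher in the piece of muscle that holds the synapses.

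No gene of the pathway passed the test between the regions. Of the 10 genes, each read from its brightest probe set, 0 were called at an adjusted p under 0.05 by limma, and 0 at an unadjusted p under 0.05. Over all 26480 probe sets tested, 0.0113% were called at the adjusted threshold and 0.986% at the unadjusted one; of the 12363 genes tested, 0.0162% were called at the adjusted one. The differences of the 10 genes, as synaptic minus non-synaptic log2 intensity, ran from -0.54 for Dok7 to 0.32 for Lrp4, with a median of 0.02 against 0.005 over all genes tested. The synaptic arrays were both higher than the non-synaptic ones for 1 gene, Lrp4, against 10.6% of all genes, and both lower for 3 genes, Dok7, Dnaja3 and Abl1, against 9.85%. The 95% interval of the difference stayed within 2-fold in either direction for 8 of the 10 genes, Musk and Dok7 being the exceptions. Over all 12363 genes tested it did so for 8629. Of the 25 probe sets, 21 passed the filter on dim signal, and all 21 had a limma adjusted p of 0.9999. The interval stayed within 2-fold for 10 of these 21, against 15854 of all 26480 probe sets tested.

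The arrays did separate 3 transcripts known to be made beneath the synapse. Not every subunit of the receptor was separated, and Chrnb1, whose regions overlapped, is given below. Chrna1, the alpha subunit of the acetylcholine receptor, had intensities of 9702 and 8633 on the synaptic arrays against 2345 and 2343 on the non-synaptic arrays. Its log2 difference was 1.97 ± 0.19 (SE, n = 2 arrays per region, 95% interval 1.48 to 2.45, limma unadjusted p = 0.000127, adjusted p = 0.198). Chrne, the epsilon subunit of the adult receptor, was at 6376 and 3470 against 1023 and 291, a log2 difference of 3.11 ± 0.67 (limma adjusted p = 0.9999), which ran from 2.20 to 4.01 with an array left out. Ache, the enzyme that ends transmission, differed by 2.58 ± 0.23 (limma adjusted p = 0.165). The regions did not overlap for any of these 3 genes. None of them passed the threshold over all probe sets in this fit, which has no term for the array number. The 3 genes were taken as a reference with their behaviour on these arrays known, so they are no independent evidence.

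**Figure D1:**
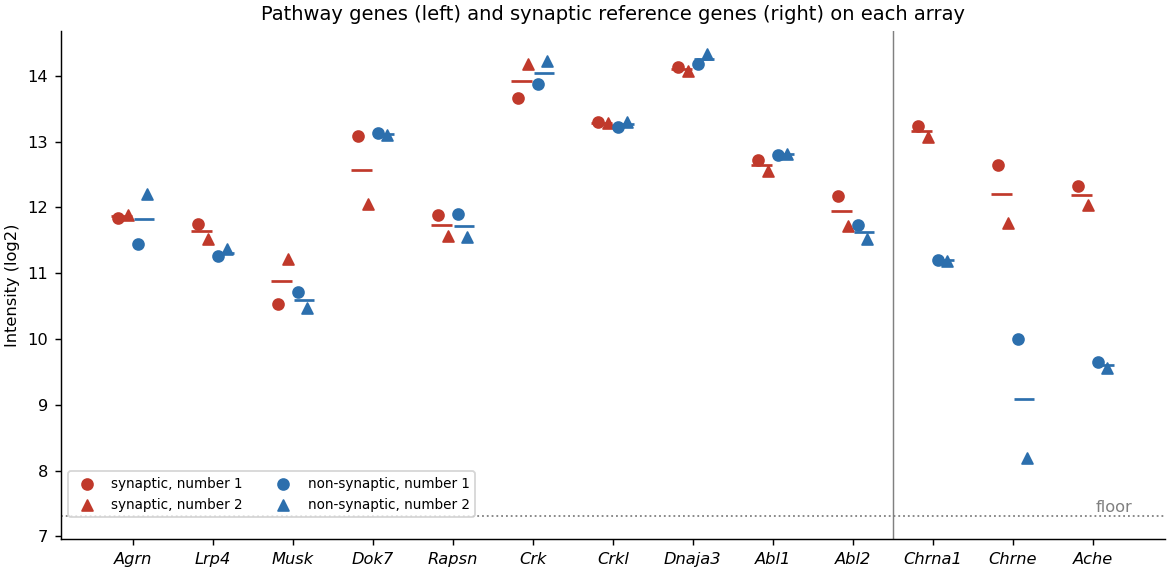
Log2 intensity (vertical axis) of each pathway gene, read from its brightest probe set, and of 3 synaptic reference genes, on the 4 arrays. Points are single arrays, short lines are region means and the dotted line is the floor at 7.31. The points of the pathway genes mix or lie close between regions, apart from the low synaptic array numbered 2 of Dok7, whereas Chrna1, Chrne and Ache lie well higher on both synaptic arrays. Levels of different probe sets are not comparable with each other.

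The arrays had been scaled to a 2% trimmed mean of 2500 and had medians from 658 to 769, with 18.7% to 21.3% of probe sets at or below the floor of 158.891, under which values were not told apart. All 10 fibre markers of skeletal muscle passed the filter, with a summed intensity of 1532060 and 1302570 on the synaptic arrays and 1334760 and 1405160 on the non-synaptic arrays. Of 11 Schwann cell markers with a probe set, 9 were tested. All 9 had both synaptic arrays above both others, against 10.6% of all genes tested. Egr2 and Ncmap passed the filter only through their synaptic arrays, so their part in this count is no test. The summed intensity of the 11 was 111329 and 121771 against 34672.5 and 36036. Of 6 fat cell markers with a probe set, 4 were tested. All 4 had both synaptic arrays below both others, against 9.85% of all genes tested. Adipoq, Retn and Pck1 passed the filter only through their non-synaptic arrays, so their part in this count is no test. The fat cell enzyme Pck1 lay under the floor in the synaptic region. The sums of the 6 were 112228 and 107519 against 133905 and 131610, of which Fabp4, also known from endothelial cells, made up most; without it they were 507 and 1240 against 14666 and 13551. Only 1 of 10 motor neuron and axon markers passed the filter. The sums of the endothelial markers were 39065 and 50838 against 42201 and 52627, and those of the fibroblast markers 316834 and 354594 against 301918 and 367867. The part of these other cells in the values of the pathway genes was not tested. In pieces of tissue, fewer cells of a type and less RNA per cell cannot be told apart.

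Among the ligand and its receptors, Agrn had intensities of 3685 and 3780 on the synaptic arrays numbered 1 and 2, and of 2791 and 4739 on the non-synaptic arrays numbered 1 and 2. The non-synaptic arrays enclosed the synaptic ones, and the log2 difference was 0.04 ± 0.31 (SE, n = 2 per region, 95% interval -0.74 to 0.81, limma unadjusted p = 0.907). It was -0.34 without the non-synaptic array numbered 1. The second Agrn probe set, 1443980_at, was at the floor on 3 arrays and at 203 on the non-synaptic array numbered 2, and it was not tested. Agrin transcripts of nerve and of muscle differ by alternative splicing, which these values do not separate.

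Lrp4, the agrin receptor, gave 3437 and 2948 in the synaptic region and 2455 and 2632 in the non-synaptic region. Both synaptic arrays lay above both others, and the log2 difference was 0.32 ± 0.21 (95% interval -0.22 to 0.87, limma unadjusted p = 0.186). The interval reaches up to a 1.82-fold higher level in the synaptic region. The difference was 0.49 between the arrays numbered 1 and 0.16 between those numbered 2.

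Musk, the receptor kinase, was at 1482 and 2392 on the synaptic arrays and at 1685 and 1424 on the non-synaptic arrays. The highest and the second lowest value both belonged to the synaptic region, so the regions overlapped. The log2 difference was 0.28 ± 0.32 (95% interval -0.52 to 1.09, limma unadjusted p = 0.413), made of -0.18 between the arrays numbered 1 and 0.75 between those numbered 2. Without the synaptic array numbered 2 it was -0.06. The upper end of the interval was 1.09, and the interval of Chrna1, a reference chosen with its values known, began at 1.48. The difference between these genes was not tested.

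Transcripts made beneath the synapse are known to be controlled through the N-box, a site of ETS factors (CCGGAA or TTCCGG), and through E-boxes (CANNTG), the sites of myogenic factors. The RefSeq promoter windows of GRCm38.p6 run from 250 bases before to 50 after each start and hold 8 of the 10 pathway genes in 11 windows; Lrp4 and Rapsn are the others. Shown are the 250 bases before the start of the receptor genes Chrne and Chrna1, whose synaptic arrays both lay higher, and of Musk and Crkl, whose regions overlapped. None of the 4 passed the limma test over all probe sets. Capitals mark N-boxes and E-boxes found on either strand.
Chrne, chr11:70619195-70619444, minus strand: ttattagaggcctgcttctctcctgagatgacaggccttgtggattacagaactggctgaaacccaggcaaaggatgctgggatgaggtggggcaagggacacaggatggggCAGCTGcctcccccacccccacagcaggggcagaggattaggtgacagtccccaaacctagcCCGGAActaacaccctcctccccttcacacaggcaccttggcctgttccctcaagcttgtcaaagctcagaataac
Chrna1, chr2:73580339-73580588, minus strand: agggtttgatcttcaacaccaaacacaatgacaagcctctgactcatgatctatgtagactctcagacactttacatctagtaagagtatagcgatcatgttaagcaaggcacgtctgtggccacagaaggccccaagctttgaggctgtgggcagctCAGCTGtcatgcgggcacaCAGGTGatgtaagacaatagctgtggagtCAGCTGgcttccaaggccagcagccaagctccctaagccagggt
Musk, chr4:58285712-58285961, plus strand: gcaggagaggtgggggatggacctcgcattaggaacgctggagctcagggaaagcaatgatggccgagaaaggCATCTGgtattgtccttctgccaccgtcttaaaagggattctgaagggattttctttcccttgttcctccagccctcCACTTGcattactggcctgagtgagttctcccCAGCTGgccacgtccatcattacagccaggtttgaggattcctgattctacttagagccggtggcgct
Crkl, chr16:17451735-17451984, plus strand: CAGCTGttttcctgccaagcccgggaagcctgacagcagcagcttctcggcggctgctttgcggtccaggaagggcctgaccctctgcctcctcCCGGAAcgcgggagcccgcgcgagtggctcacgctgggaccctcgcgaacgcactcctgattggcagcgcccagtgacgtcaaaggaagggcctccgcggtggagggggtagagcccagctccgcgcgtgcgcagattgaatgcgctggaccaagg

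In Chrne the N-box began at position -76 and an E-box at -138, counted from the start. Musk held 3 E-boxes, at -177, -100 and -68, and no N-box in its window, and Chrna1 likewise held 3 E-boxes, at -92, -73 and -44, and no N-box. Among the pathway genes an N-box was found in Crkl at -156, in Dnaja3 at -2 and in Crk at 19, which is 3 of 11 windows against 14.9% of all 32851 windows. E-boxes were in 8 of the 11 windows against 72.3% of all. The 3 pathway genes with an N-box in the window were not called between the regions, and such a match of letters does not show that a factor binds there.

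Among the adaptors, Dok7 was at 8710 and 4252 on the synaptic arrays numbered 1 and 2 and at 8968 and 8788 on the non-synaptic arrays. The synaptic array numbered 2 stood low, while the other 3 lay close together. The log2 difference was -0.54 ± 0.37 (95% interval -1.48 to 0.39, limma unadjusted p = 0.195), and it was -0.03 without the synaptic array numbered 2 and -1.06 without the synaptic array numbered 1. This probe set, 1434812_s_at, carries the suffix that the array's naming uses for probes shared by transcripts of more than 1 gene, so its value may not be Dok7 alone. The second Dok7 probe set, 1442869_at, gave 1349 and 1015 against 1477 and 780. Its regions overlapped and its difference was 0.12 ± 0.40 (limma unadjusted p = 0.767), opposite in sign to the brighter probe set.

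Crk, an adaptor that binds phosphorylated Dok7, was at 12926 and 18528 on the synaptic arrays and at 14976 and 19081 on the non-synaptic arrays. In each region the array numbered 2 was the higher, and the regions overlapped. The log2 difference of Crk was -0.13 ± 0.25 (95% interval -0.76 to 0.51, limma unadjusted p = 0.631), and it was 0.13 without the synaptic array numbered 1. The further 4 Crk probe sets had differences from -0.45 to 0.01, none of them called, and their regions overlapped as well.

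Crkl, a close relative of Crk with the same role, gave 10111 and 9932 in the synaptic region and 9600 and 10100 in the non-synaptic region. All 4 arrays were nearly equal. The log2 difference was 0.03 ± 0.17, and the 95% interval of -0.40 to 0.45 (limma unadjusted p = 0.886) corresponds to 0.756-fold to 1.37-fold. The further 2 tested probe sets of Crkl, 1421953_at and 1421954_at, differed by 0.15 ± 0.72 and -0.91 ± 1.01, with standard errors several times as large. The dim Crkl probe set 1425604_at was below the filter.

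Of the clustering proteins, Rapsn, which encodes the scaffold beneath the receptors, was at 3779 and 3037 on the synaptic arrays and at 3806 and 2995 on the non-synaptic arrays. The arrays with the same number were almost equal across regions: the difference was -0.01 between those numbered 1 and 0.02 between those numbered 2. Over both, the log2 difference of Rapsn was 0.005 ± 0.24 (95% interval -0.61 to 0.62, limma unadjusted p = 0.984), and the interval spans 0.654-fold to 1.54-fold. Without the synaptic array numbered 1 it was -0.15, and without the non-synaptic array numbered 2 it was -0.17.

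Dnaja3, the co-chaperone that binds MuSK, gave 18049 and 17198 against 18584 and 20571. Both synaptic arrays lay below both others, by a log2 difference of -0.15 ± 0.16 (95% interval -0.56 to 0.26, limma unadjusted p = 0.396). The second tested probe set, 1420629_a_at, was at 2028 and 8626 against 4393 and 8072. The synaptic arrays enclosed the non-synaptic ones, and the difference was -0.51 ± 0.73 (limma unadjusted p = 0.514). The probe set 1432066_at was below the filter.

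The 2 Abl kinases had small differences of opposite sign, and neither passed. Abl1 was at 6767 and 6014 on the synaptic arrays and at 7101 and 7218 on the non-synaptic arrays, a log2 difference of -0.17 ± 0.18 (95% interval -0.63 to 0.30, limma unadjusted p = 0.404) with the synaptic arrays below both others. Its 2 dimmer probe sets disagreed in sign. The first of them, 1444134_at, gave 717 and 709 against 566 and 337, and its difference of 0.71 ± 0.40 (limma unadjusted p = 0.133) had the smallest p of all 21 tested probe sets of the pathway. The other, 1441291_at, gave 421 and 567 against 675 and 588, a difference of -0.37 ± 0.36.

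Abl2 was at 4639 and 3358 on the synaptic arrays and at 3414 and 2940 on the non-synaptic arrays. The higher value of each region was on the array numbered 1, and the regions overlapped. The log2 difference of Abl2 was 0.32 ± 0.25 (95% interval -0.32 to 0.95, limma unadjusted p = 0.259). Its second probe set, 1455682_at, had both synaptic arrays above both others, at 1769 and 1691 against 1534 and 1564, with a difference of 0.16 ± 0.22. A further Abl2 probe set, 1445483_at, was at the floor on all 4 arrays.

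**Figure D2:**
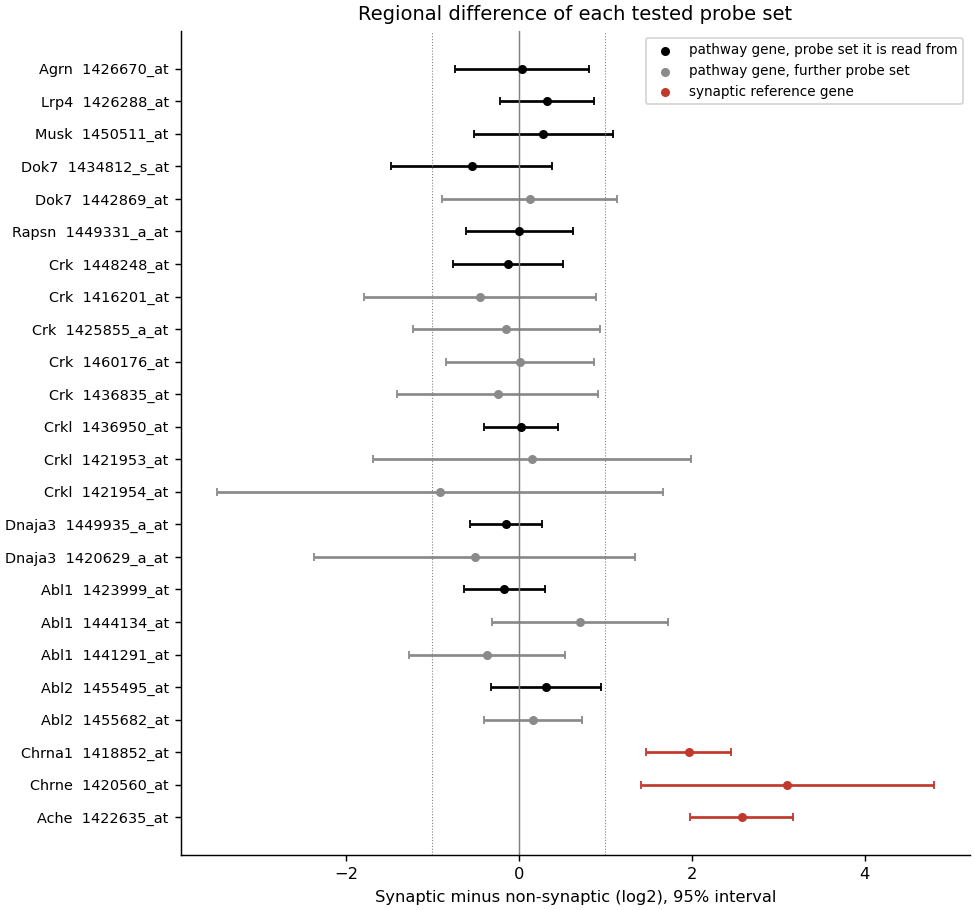
Synaptic minus non-synaptic log2 intensity (horizontal axis) of the 21 tested probe sets of the pathway and of 3 reference genes, with the 95% interval of the limma fit, from 2 arrays per region. Black marks the probe set a gene is read from, grey its further probe sets, red the reference genes, and the dotted lines 2-fold. Every pathway interval includes 0, and the widest belong to the further probe sets of Crkl, Dnaja3 and Crk, whereas the intervals of Chrna1, Chrne and Ache lie above 1.

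Some probe sets of Crk, Crkl and Dnaja3 were separated more by the array number than by the region, in a comparison added after the values were seen. The Crkl probe set 1421953_at was at 860 and 735 on the synaptic and non-synaptic arrays numbered 1, and at 2403 and 2277 on those numbered 2. For 1421954_at the values were 321 and 967 on the arrays numbered 1 and 2245 and 2641 on those numbered 2. The mean log2 level was thus 1.56 and 2.13 higher on the arrays numbered 2, whereas that of the brightest Crkl probe set differed by 0.02. The Dnaja3 probe set 1420629_a_at was 2.80-fold higher on the arrays numbered 2, and the brightest Dnaja3 probe set 1.03-fold. In Crk the probe set 1416201_at was 2.11-fold higher, from 2707 and 4624 to 7144 and 7829, and the brightest Crk probe set 1.35-fold. These were all 4 tested probe sets of the pathway, of 21, that were at least 2-fold higher with both arrays numbered 2 above both numbered 1, against 5.57% of all probe sets tested. With each gene read from its brightest probe set, 0 of the 10 genes were so, against 165 of all 12363 genes tested. No tested probe set of the pathway was at least 2-fold lower with both arrays numbered 2 below both others, against 339 of all 26480 tested.

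**Figure D3:**
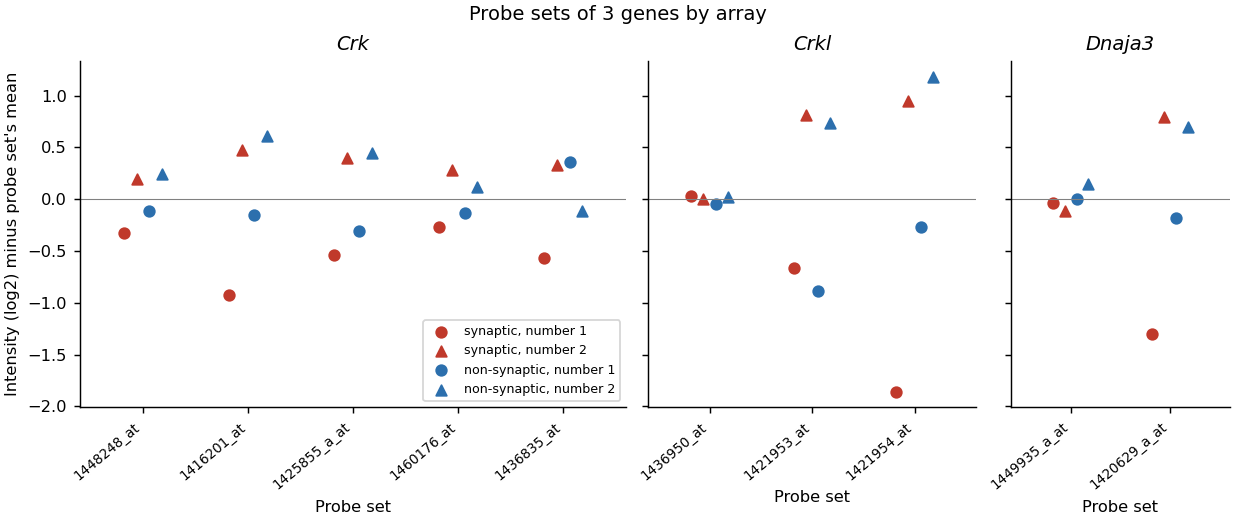
Log2 intensity minus the probe set's own mean (vertical axis) on each array, for the tested probe sets of Crk, Crkl and Dnaja3 (horizontal axis), with region as colour and array number as shape. In the brightest probe sets of Crkl and Dnaja3 the 4 arrays lie together, while in 1421953_at, 1421954_at and 1420629_a_at the arrays numbered 2 lie above those numbered 1 in both regions.

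Over all 21 tested probe sets of the pathway, the arrays numbered 2 lay apart from those numbered 1 in 11, against 61.4% of all probe sets tested. The median size of that difference was 0.38, against 0.17 for the difference between regions in the same probe sets. Over all probe sets these medians were 0.29 and 0.14, so the array number was the larger split in the whole data as well. The 3' over 5' signal ratio of the Gapdh control probe sets, which is read as a measure of RNA quality, was 1.03 and 0.853 on the arrays numbered 1 and 0.814 and 0.815 on those numbered 2. That of Actb was 1.37 and 1.27 against 1.19 and 1.20. The part of RNA quality in the split was not tested, and the sources used here do not say what the number stands for. Of the 10 genes, 6 had the same sign of the regional difference within both numbers (Lrp4, Dok7, Crk, Dnaja3, Abl1 and Abl2), against 51.7% of all genes tested.

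**Figure D4:**
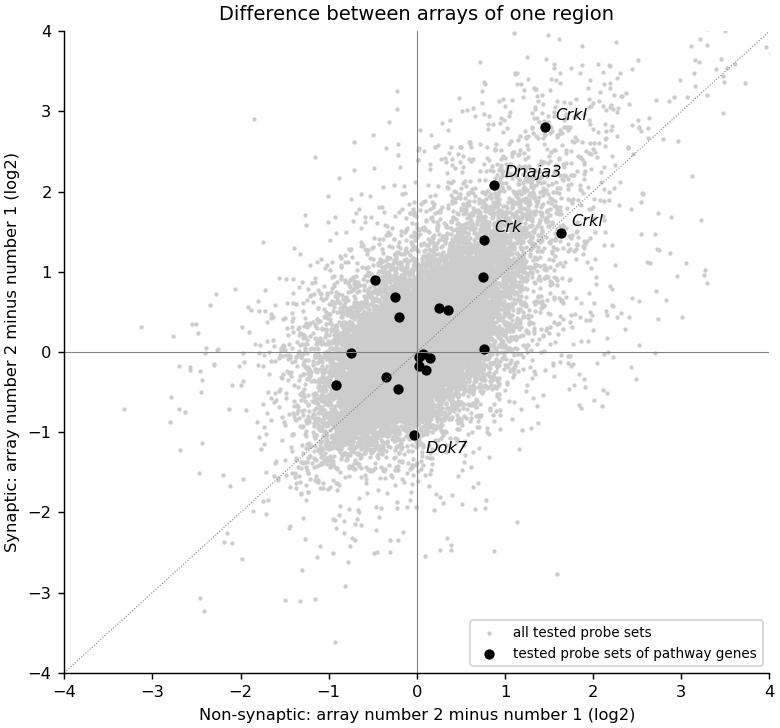
Log2 difference between the arrays numbered 2 and 1 of the non-synaptic region (horizontal axis) and of the synaptic region (vertical axis), for all 26480 tested probe sets (grey; 20 lie outside the axes) and the 21 of the pathway (black). Probe sets of Crkl, Dnaja3 and Crk lie in the upper right, higher on the arrays numbered 2 in both regions, and the brighter Dok7 probe set lies low on the vertical axis only, where the synaptic array numbered 2 enters.

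The subunits of the receptor that the pathway clusters gave unlike values. Beside Chrna1 and Chrne, the beta subunit Chrnb1, through which rapsyn is known to bind the receptor, was at 8599 and 11405 in the synaptic region and at 8804 and 10679 in the non-synaptic region. Its regions overlapped, and its log2 difference was 0.03 ± 0.23 (limma adjusted p = 0.9999). The remaining subunits were below the filter. The delta subunit Chrnd was above the floor on 1 array only, the synaptic array numbered 2, at 273. Chrng, the gamma subunit of the fetal receptor, was at 361 and 346 on the synaptic arrays and below the floor on both non-synaptic arrays. With no filter its log2 difference was 1.15, a lower bound (limma unadjusted p = 0.000140, adjusted p = 0.149), and that of Chrnd was 0.39 (limma unadjusted p = 0.325). Both non-synaptic arrays were set to the same floor for these 2 subunits. This removes the spread between them, so these p-values do not measure it.

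Among further genes of agrin and MuSK signalling none was called either. Of 32 such genes, among them matrix partners, kinases, GTPases and cytoskeletal proteins, 28 had a probe set of their own and 24 were tested. By limma 0 of the 24 were called, and 0 had an unadjusted p under 0.05. Their median log2 difference was 0.05, against 0.005 over all genes tested, with 16 positive and 8 negative values. Over all 12363 genes tested 6354 were positive and 6009 negative, and the split of the 24 was not tested. Src, a kinase that acts on the receptor after agrin binds, had the smallest p, at 959 and 1112 against 700 and 380, a difference of 1.001 ± 0.40 (95% interval -0.03 to 2.03, limma unadjusted p = 0.0542, adjusted p = 0.9999). It was 1.44 without the non-synaptic array numbered 1 and 0.56 without the non-synaptic array numbered 2. The Src probe set carries the same suffix as the brighter Dok7 probe set, so its value may not be Src alone. This probe set was also dim, with a mean log2 intensity of 9.51 against the filter at 8.87, and the stricter filter left it out.

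Of the 24, 4 had both synaptic arrays above both others, against 10.6% of all genes, and 2 had both below, against 9.85%. The 4 were Src, the related kinase Fyn at 0.21 ± 0.18, the microtubule-binding protein Clasp2 at 0.27 ± 0.17 and the actin-binding protein Cttn at 0.21 ± 0.20. The 2 lower were the kinase Gsk3b at -0.11 and the membrane fusion factor Nsf at -0.17, named after their values were seen. None of these was called. The 2 with the highest signal, the GTPase Rac1 and beta-catenin (Ctnnb1), differed by -0.08 ± 0.18 and -0.04 ± 0.18 and overlapped between the regions. The Rac1 probe set also carries the suffix for shared probes, so its value may not be Rac1 alone. Colq, Col13a1, Mmp3 and Caskin1 were below the filter.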

How the data were processed

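The authors' deposited values are linear intensities, 1 per probe set, for 45101 probe sets on 4 arrays; the sources used here name no scanner or summary method. Their scaling was kept. Values were raised to a floor of 158.891 (20th percentile), log2 was taken, and the 64 control probe sets and those with a mean log2 value below 8.87 (40th percentile of values) were left out. Regions were compared over the 26480 others with limma 3.58.1 in R 4.3.3 (lmFit, eBayes with an intensity trend, 2-sided, Benjamini-Hochberg adjustment over all probe sets tested). Residual degrees of freedom were 2, and the variance prior added 3.16. An exact permutation test of 2 against 2 arrays cannot go below p = 0.333 and was not used. Standard errors and intervals come from the moderated fit. The number of arrays limits the precision. The fit had no term for the array number, so the split by number entered the standard errors and intervals. Over tested probe sets, the median absolute log2 difference between arrays of the same region was 0.35 (synaptic) and 0.30 (non-synaptic). Across regions it was 0.20 between the arrays numbered 1 and 0.16 between those numbered 2. A fit with the number as a block is given below.

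Names came from the platform annotation, which can be old, with symbols updated through RefSeq tables of GRCm38.p6 for 34754 of the 34958 probe sets with 1 gene. A further 932 had several genes and 9211 none. A gene was read from its probe set with the highest mean. Named beside the 10 genes were the receptor subunits, Ache, and of the further pathway genes the 4 with the smallest p and the 2 brightest. Marker lists are given as counts and sums, with Pck1, Fabp4, Adipoq, Retn, Egr2 and Ncmap named after their values were seen. The members and lists were chosen with earlier results of these data known. Alternatives were other scalings, filters, floors and variance priors, the array number as a block, each array left out, and averaging a gene's probe sets. The fit was also run on simulated data with independent arrays, which does not cover the likeness of same-numbered arrays seen here.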

Additional observations from a re-analysis of the deposited data

How the results depend on the processing

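None of the 10 genes, of their 21 tested probe sets and of the further pathway genes was called under any of the 14 alternatives in which it was measured, or at an unadjusted p under 0.05 with the original settings; the lowest limma adjusted p of a member was 0.493, for the Crkl probe set 1421954_at with an array left out. Quantile normalization and median centring turned the sign of 0 of the 21 probe sets. With the array number as a replicate block, justified only by a correlation of 0.63 between the deviations of same-numbered arrays and not by the labels, limma called 74 probe sets in place of 3, including Chrna1 (adjusted p = 7.42e-05), Chrne (0.000320) and Ache (0.000126). Of the 21 pathway probe sets, 4 then had an unadjusted p under 0.05, against 6.27% of all probe sets in that fit. Their adjusted limma p with the block was 0.690 for Dok7, 0.797 for Abl2, 0.678 for Crk 1416201_at and 0.683 for Crkl 1421954_at. The last 2 were among the probe sets at least 2-fold higher on the arrays numbered 2. On all 4 arrays, Src had an unadjusted limma p under 0.05 with median centring, a raised floor, no trend and the block. Clasp2 had one with the block only, and the adjusted p was 0.690 or more for both. Unadjusted p-values with an array left out, which leaves 1 array in a region, were not counted for these genes or the pathway. Without a filter or a trend, and without either non-synaptic array, 0 probe sets were called in all; without the synaptic array numbered 1 there were 7 and without that numbered 2 there were 11.

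Leaving out each array in turn changed the sign of 13 of the 21 differences. The ranges were -0.34 to 0.42 for Agrn, -0.0634 to 0.63 for Musk, -0.17 to 0.18 for Rapsn, -0.39 to 0.13 for Crk and -0.0112 to 0.0619 for Crkl. Among further probe sets they were -0.34 to 0.58 for Dok7 1442869_at, -1.15 to 0.25 for Crk 1416201_at, -0.61 to 0.32 for Crk 1425855_a_at, -0.26 to 0.29 for Crk 1460176_at, -0.70 to 0.20 for Crk 1436835_at, -0.66 to 0.97 for Crkl 1421953_at, -2.32 to 0.49 for Crkl 1421954_at and -1.55 to 0.53 for Dnaja3 1420629_a_at. They were -0.17 to 0.23 for Chrnb1, -0.24 to 0.0775 for Rac1 and -0.18 to 0.11 for Ctnnb1. Averaging a gene's probe sets turned Agrn to -0.0696, Crkl to -0.15 and Abl1 to 0.0583. The cause was not tested. The 4 pathway probe sets below the filter had unadjusted limma p from 0.325 to 1 when no filter was set, and their signal near the floor limits this test.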

Other observations

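The control probe sets for the transferrin receptor were higher on the arrays numbered 2. This was also the direction of the 4 further probe sets of Crkl, Dnaja3 and Crk that were at least 2-fold higher there. The dim probe sets 1425604_at of Crkl and 1432066_at of Dnaja3 went the other way. At the 3' end the intensities of the control probe sets were 1487 and 2468 on the synaptic and non-synaptic arrays numbered 1, against 16234 and 18670 on those numbered 2. At the 5' end they were 262 and 456 against 4145 and 4512.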
